A study of Mus musculus with 36 samples.

Results

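The experiment described here asks whether lipoxin A4 (LXA4) moved kidney cortex transcripts differently in diabetic and in nondiabetic mice. The measure is an interaction, which is the LXA4 minus vehicle difference in diabetic mice minus the same difference in nondiabetic mice. It was computed for every gene as a contrast of 24 of the 36 RNA-seq libraries of the series. These were chosen by their labels alone, with 6 libraries in each of 4 groups. The groups were diabetic mice given LXA4, diabetic mice given vehicle, nondiabetic mice given LXA4 and nondiabetic mice given vehicle. All were male ApoE-/- mice on the C57BL/6 background, so the controls carry the deletion too and no group has an intact Apoe gene. Diabetes was induced at an age of 6 weeks with 5 daily intraperitoneal doses of streptozotocin at 55 mg/kg, a toxin taken up by pancreatic beta cells. LXA4 was given at 5 ug/kg and the vehicle was 0.1% ethanol, both by intraperitoneal injection 2 times weekly from week 10 to week 16. The remaining 12 libraries came from mice given benzo-LXA4, a synthetic analog, at 1.7 ug/kg. They were in the same fit, so the spread behind the gene tests was estimated over all 36 libraries. The labels do not say that each library is a separate mouse, so p-values measure the spread between these samples, which may in part be technical.

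LXA4 is a lipid mediator that cells make from arachidonic acid, and it acts on leukocytes and epithelial cells mainly through the receptor FPR2. It is known for limiting neutrophil recruitment and for helping inflammation to resolve, and in renal cells lipoxins have been studied as antagonists of growth factor and TGF-beta signalling. Kidney tissue also runs a circadian clock, in which CLOCK and ARNTL drive the Per and Cry genes and the PAR-domain factors Dbp, Tef and Hlf, whose products feed back on the cycle. Transcripts of these genes change with the hour at which tissue is taken, and the labels give no hour of collection.

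Total counts were between 8896193 and 43305005 per library, with a median of 27741460. Marker levels went with kidney tissue, but they do not show that inner medulla or urothelium was absent from the samples. The 26 of 26 proximal tubule markers measured summed to 20005 to 45642 CPM (counts scaled to library size) over the 24 libraries, whereas 1 of 10 adrenal markers was measured and lay between 0.895 and 2.52 CPM. Apoe, the deleted gene, was between 1.62 and 3.07 CPM over the 24 libraries, with an interaction of 0.17 (log2) and an edgeR adjusted p of 0.740. Mitochondrial ribosomal RNA aside, small structural and ribosomal RNAs took 56.9% of counts in diabetic LXA4 replicate 6 and 17.7% in nondiabetic vehicle replicate 3. The share was at most 6.81% in each of the other 22 libraries. These 2 libraries had the fewest counts of their groups, and results are given with and without them.

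The LXA4 effect differed between the 2 diabetic states for a small set of genes. Of 15726 genes tested in the fit of all 36 libraries, 39 passed the interaction test (edgeR quasi-likelihood test, Benjamini-Hochberg adjusted p under 0.05). This is 0.248% of all genes, and in a fit of the 24 libraries alone 0 passed. In 33 of the 39 genes, 0.21% of all genes, the interaction was positive, and in 6, 0.0382% of all genes, it was negative. Each of the 33 had a fitted LXA4 effect above 0 in diabetic mice and below 0 in nondiabetic mice, where no gene passed by itself. Each of the 6 had the reverse signs. Choice by the interaction favours opposite signs, and 62.6% of all genes tested had opposite signs as well. The median interaction was 0.61 (log2) in the 33 genes and -0.88 (log2) in the 6, against 0.03 (log2) over all genes. The median LXA4 effect in the 33 genes was 0.40 (log2) in diabetic mice and -0.24 (log2) in nondiabetic mice. Among the 39, 31 had the larger absolute effect in diabetic mice.

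The separate effects of LXA4 in each state gave few calls. In diabetic mice 56 genes passed against vehicle (0.356% of genes), 49 of them higher (0.312%) and 7 lower (0.0445%) with LXA4, and in nondiabetic mice 0 passed (0%), although 967 had an unadjusted p under 0.05 in edgeR and 3 passed with DESeq2 and 3 with voom. The interaction uses the same libraries as these contrasts, so a gene that passes more than 1 of them is not counted as further support. Some genes passed in diabetic mice without passing the interaction. Ablim1, an actin-binding protein, had an LXA4 effect of 0.37 (log2; adjusted p = 0.0176) in diabetic and -0.00677 (log2) in nondiabetic mice, and Trak1, an adaptor of mitochondrial transport, 0.36 (log2; adjusted p = 0.0187) and -0.06 (log2), with interactions of 0.38 and 0.42 (log2; adjusted p = 0.0669 and 0.056). Grin3a, a glutamate receptor subunit, had 1.06 (log2; adjusted p = 0.0244) and 0.27 (log2), with an interaction of 0.79 (log2; adjusted p = 0.209). Across the 15726 genes the LXA4 effect in diabetic mice and that in nondiabetic mice, which share no library, had a Pearson correlation of -0.31 and a Spearman correlation of -0.30. Genes within a library share its depth and composition and are not independent. Without the 2 libraries rich in structural RNA these correlations were -0.29 and -0.22.

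**Figure D1:**
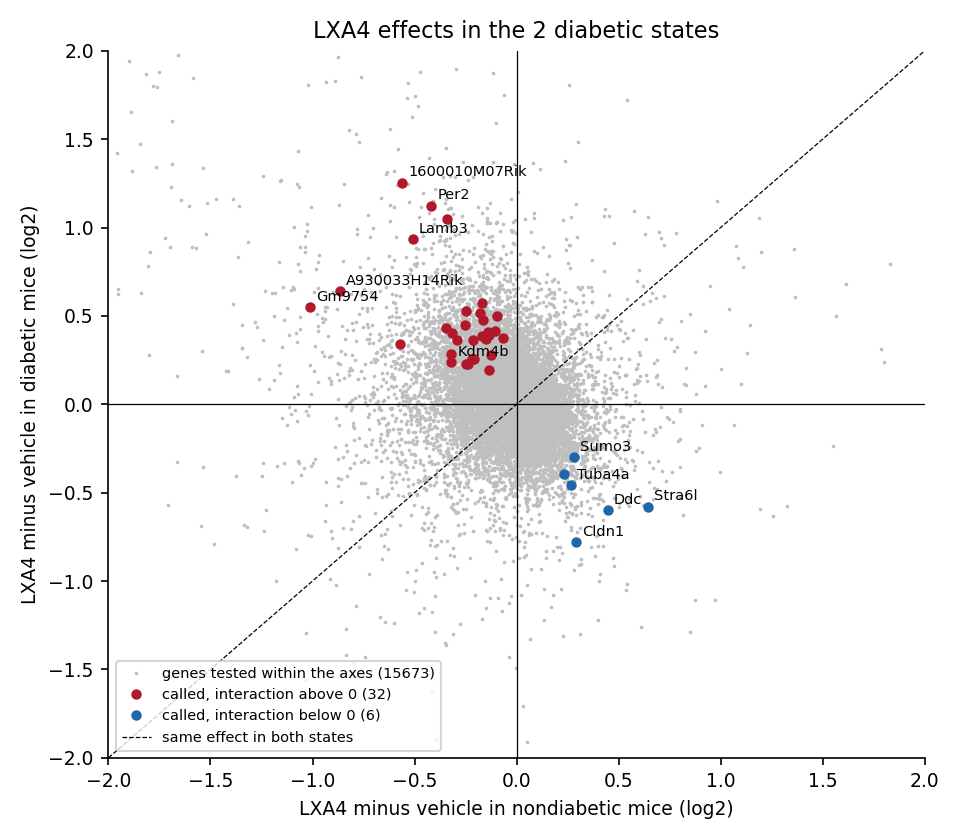
LXA4 minus vehicle (log2) in diabetic mice on the vertical axis and in nondiabetic mice on the horizontal axis, with 1 point per gene. The 32 red and 6 blue points passed the interaction test and lie to the upper left and the lower right, off the dashed line of equal effects. Aldh1a3, the remaining called gene, lies outside the axes.

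The called genes of basement membranes and epithelial contacts were Lamb3, Lama5, Cldn1, Dlg5 and Pkd1. Lamb3 (ENSMUSG00000026639, chr1:193207699-193343878 of GRCm38, plus strand) encodes the beta-3 chain of laminin-332, a basement membrane protein of epithelia. Lamb3 had lowest, median and highest levels of 12.1, 16.4 and 24.3 CPM in diabetic LXA4 libraries against 6.95, 8.95 and 11.4 CPM in diabetic vehicle libraries. In nondiabetic mice Lamb3 had 5.43, 8.55 and 10.8 CPM with LXA4 against 8.81, 11.2 and 18 CPM with vehicle. Every diabetic LXA4 library was above every diabetic vehicle library, whereas the nondiabetic groups overlapped with the LXA4 libraries on the low side. The interaction of Lamb3 was 1.44 ± 0.26 (log2, SE) with an edgeR adjusted p of 0.0191. Its LXA4 effect was 0.94 ± 0.19 (log2, SE; adjusted p = 0.0197) in diabetic mice and -0.51 ± 0.18 (log2, SE; adjusted p = 0.807) in nondiabetic mice. Lamb3 was the single gene that kept its call when the clock score described below was fitted as a covariate, at an interaction of 1.55 (log2) and an adjusted p of 0.0441. Within their groups, diabetic LXA4 replicate 5 (24.3 CPM) and nondiabetic vehicle replicate 2 (18 CPM) had the highest Lamb3 levels. The same 2 libraries had the highest sums of uroplakins and urothelial keratins, given below. The part of urothelial tissue in the Lamb3 value was not tested.

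Cldn1 (ENSMUSG00000022512, chr16:26356642-26371841, minus strand) encodes claudin-1, a tight junction protein. Cldn1 had lowest, median and highest levels of 6.14, 11.2 and 16.4 CPM in diabetic LXA4 libraries against 17.0, 20.7 and 22.3 CPM in diabetic vehicle libraries. The nondiabetic libraries had 10.0, 10.8 and 14.9 CPM with LXA4 against 5.72, 9.78 and 11.5 CPM with vehicle. Diabetic vehicle libraries thus stood above the other 3 groups without overlap. The interaction of Cldn1 was -1.07 ± 0.22 (log2, SE) with an edgeR adjusted p of 0.0323, and its diabetic against nondiabetic difference under vehicle was 1.12 (log2; adjusted p = 1.59e-05, in a comparison where 5.6% of genes passed). Lama5, the laminin alpha-5 chain of the mature glomerular basement membrane, had 184, 202 and 215 CPM in diabetic LXA4 libraries against 149, 174 and 192 CPM in diabetic vehicle libraries. Its nondiabetic libraries had 115, 130 and 135 CPM with LXA4 against 134, 153 and 174 CPM with vehicle, and the interaction was 0.46 ± 0.10 (log2, SE; adjusted p = 0.0481). The 2 Lama5 pairs overlapped by a small margin in each state. Dlg5, a scaffold protein of epithelial polarity, had an interaction of 0.53 (log2; adjusted p = 0.0226), and Pkd1, which encodes polycystin-1, of 0.52 (log2; adjusted p = 0.034). Both had diabetic LXA4 libraries that lay above all diabetic vehicle libraries, with diabetic LXA4 replicate 6 the highest in each. The exons of Pkd1 overlap those of Tsc2 on the other strand, and the strand setting of the counting is not given in the sources used here.

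Chromatin and transcription proteins made up the next group. Kdm4b, a histone demethylase (ENSMUSG00000024201, chr17:56326062-56402870, plus strand), had the smallest p of all genes and was chosen for description after its value was seen. Kdm4b had lowest, median and highest levels of 48.7, 50.5 and 52.7 CPM in diabetic LXA4 libraries against 34.9, 43.5 and 48.3 CPM in diabetic vehicle libraries. In nondiabetic mice it had 33.8, 35.6 and 38.7 CPM with LXA4 against 40.8, 42.4 and 52.5 CPM with vehicle. Neither pair of groups overlapped, and the LXA4 groups spanned narrower ranges than the vehicle groups. The interaction of Kdm4b was 0.56 ± 0.10 (log2, SE; edgeR adjusted p = 0.0191), made of a difference of 0.24 (adjusted p = 0.130) in diabetic and -0.32 (adjusted p = 0.314) in nondiabetic mice. Over the 39 genes, 16 had no overlap of LXA4 and vehicle libraries in diabetic mice and 4 had none in nondiabetic mice. Over all 15726 genes 129 (0.82%) had no overlap in diabetic mice and 70 (0.445%) in nondiabetic mice, and the 39 were chosen by a test on these same libraries, so nothing is read from the difference.

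Hdac7, a class IIa histone deacetylase, had an interaction of 0.78 (log2; edgeR adjusted p = 0.0467), and Cbfa2t3, a corepressor of the ETO family, of 0.77 (log2; adjusted p = 0.0323). Eya2, a transcriptional coactivator with phosphatase activity, had an interaction of 0.66 (log2; adjusted p = 0.0286).

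Med28 and Sumo3 moved the other way. Med28, a subunit of the Mediator complex, had lowest, median and highest levels of 22.7, 40.5 and 41.8 CPM in diabetic LXA4 libraries against 43.4, 49.6 and 55.7 CPM in diabetic vehicle libraries. In nondiabetic mice Med28 had 58.2, 61.5 and 65.2 CPM with LXA4 against 42.4, 51.8 and 61.0 CPM with vehicle. The diabetic groups did not overlap and the nondiabetic groups did. Its interaction was -0.62 ± 0.14 (log2, SE; edgeR adjusted p = 0.0467). Sumo3, a small protein that is attached to other proteins, had an interaction of -0.58 ± 0.11 (log2, SE; adjusted p = 0.0257). Sumo3 had 29.0, 33.1 and 44.0 CPM in diabetic LXA4 libraries against 38.6, 42.5 and 46.8 CPM in diabetic vehicle libraries, and 45, 50.6 and 53.7 CPM with LXA4 against 34, 40.9 and 49.2 CPM with vehicle in nondiabetic mice. Both pairs overlapped, in diabetic mice through replicate 5 of the LXA4 group.

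Among enzymes and transporters, Ddc (ENSMUSG00000020182, chr11:11814101-11898144, minus strand) encodes the aromatic amino acid decarboxylase that makes dopamine in the proximal tubule. Ddc had lowest, median and highest levels of 43.8, 51.7 and 63.1 CPM in diabetic LXA4 libraries against 64.5, 77.5 and 101 CPM in diabetic vehicle libraries. In nondiabetic mice it had 69.5, 79.9 and 88.0 CPM with LXA4 against 38.0, 57.3 and 79.2 CPM with vehicle. The diabetic groups did not overlap, and in nondiabetic mice all 6 LXA4 libraries were above the vehicle mean. The interaction of Ddc was -1.05 ± 0.20 (log2, SE; edgeR adjusted p = 0.0212). Stra6l, a receptor for retinol-binding protein, had an interaction of -1.22 ± 0.26 (log2, SE; adjusted p = 0.0323) with 10.8, 11.8 and 19.4 CPM in diabetic LXA4 against 15, 19.4 and 23.4 CPM in diabetic vehicle libraries. Its nondiabetic libraries had 14.1, 21.2 and 25.0 CPM with LXA4 against 7.20, 13.8 and 15.4 CPM with vehicle. Both pairs of Stra6l overlapped, in diabetic mice through replicate 6 of the LXA4 group. Ptpn1, a tyrosine phosphatase that acts on the insulin receptor, had an interaction of 0.53 (log2; adjusted p = 0.0339) and Ppcdc, an enzyme of coenzyme A synthesis, of 0.48 (log2; adjusted p = 0.0485).

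Aldh1a3, which makes retinoic acid from retinaldehyde, had the largest fitted interaction among the 39, at 8.17 ± 1.77 (log2, SE; edgeR adjusted p = 0.0342). That value rested on 2 libraries. Diabetic LXA4 replicate 5 had 89.0 CPM and nondiabetic vehicle replicate 2 had 46.3 CPM, whereas the other 22 libraries had between 0.295 and 1.13 CPM. Leaving out single libraries moved the fitted interaction between 3.89 and 8.43 (log2), with an adjusted p of 0.211 without nondiabetic vehicle replicate 2. Urothelial markers were high in the same 2 libraries. The 7 uroplakins and urothelial keratins measured summed to 40.1 CPM in diabetic LXA4 replicate 5 and 31.9 CPM in nondiabetic vehicle replicate 2, the highest of the 24. Over the whole list of 12 urothelial and inner medullary markers, 0 passed in edgeR, beside 0.248% of all genes. At an unadjusted p under 0.05 in edgeR, 8 (66.7%) had a positive interaction, beside 10.9% of all genes. With DESeq2 6 (50%) did, beside 11.3%, and with voom and quality weights 0 did, beside 8.28%. The median interaction of the list was 3.00 (log2). The summed level of the whole list was 120 to 704 CPM in diabetic LXA4, 557 to 716 CPM in diabetic vehicle, 693 to 898 CPM in nondiabetic LXA4 and 481 to 820 CPM in nondiabetic vehicle libraries. The 7 uroplakins and urothelial keratins made up at most 40.1 CPM of these sums. Most of each sum thus came from other members of the list, and it does not measure urothelial tissue. Upk3b, a uroplakin, ranged from 0.451 to 8.25 CPM in diabetic LXA4, 0 to 1.45 CPM in diabetic vehicle, 0.0655 to 1.3 CPM in nondiabetic LXA4 and 0.179 to 6.88 CPM in nondiabetic vehicle libraries, with an interaction of 3.94 (log2; adjusted p = 0.137). The part of urothelial tissue in the Aldh1a3 value was not tested. In bulk tissue, fewer cells of a type and less RNA per cell cannot be told apart.

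Further called genes act in signalling, the cytoskeleton and membrane traffic. Map3k9, a mixed-lineage kinase, had an interaction of 0.61 (log2; edgeR adjusted p = 0.0257) with 22.2, 24 and 26.9 CPM as lowest, median and highest levels in diabetic LXA4 libraries against 16.7, 19.5 and 22.9 CPM in diabetic vehicle libraries. Its nondiabetic libraries had 13.6, 14.1 and 16.6 CPM with LXA4 against 16.4, 18.1 and 21.3 CPM with vehicle, so each pair overlapped only at its edge. The guanine nucleotide exchange factors Ngef and Arhgef10 had interactions of 0.74 and 0.55 (log2), and Epb41l1, a membrane skeleton protein, of 0.58 (log2). Syne3, a nuclear envelope anchor of the cytoskeleton, had 0.91 (log2), Myo10, an unconventional myosin of filopodia, 0.45 (log2), and Tuba4a, an alpha-tubulin, -0.72 (log2). Cables1, an adaptor of cyclin-dependent kinases, and Mad1l1, of the spindle checkpoint, had 0.59 and 0.47 (log2). Among membrane and trafficking genes, Anxa11, an annexin, had 0.40 (log2), Pitpnm2, a phosphatidylinositol transfer protein, 0.55 (log2), Trappc12, of a vesicle tethering complex, 0.33 (log2), and Zdhhc1, a palmitoyltransferase, 0.47 (log2). Ctif, a translation initiation factor of the nuclear cap-binding complex, had 0.52 (log2). Fam102a, Fam169b, D930015E06Rik and A930033H14Rik had 0.69, 0.64, 0.72 and 1.5 (log2). The edgeR adjusted p-values of the genes in these sentences lay between 0.0257 for Map3k9 and 0.0485 for Tuba4a.

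Of the 39 genes 37 are protein coding, and the other 2 are annotated as antisense. 1600010M07Rik had the largest interaction after Aldh1a3, at 1.82 ± 0.33 (log2, SE; edgeR adjusted p = 0.0191), with 6.04, 8.96 and 13.3 CPM in diabetic LXA4 libraries against 2.45, 4.21 and 5.13 CPM in diabetic vehicle libraries. In nondiabetic mice it had 4.03, 5.41 and 8.08 CPM with LXA4 against 6.63, 7.19 and 14 CPM with vehicle. The diabetic groups did not overlap. Gm9754, whose exons overlap those of Fbxw8 on the other strand, had an interaction of 1.56 (log2; adjusted p = 0.0485) at levels of 0.168 to 1.03 CPM. The negative genes nearest to a call were D930015M05Rik at -1.98 (log2; edgeR adjusted p = 0.056), 0610009B22Rik at -0.56 (log2; adjusted p = 0.0645), the chaperone gene Calr at -0.79 (log2; adjusted p = 0.0653) and the selenoprotein gene Selt at -0.42 (log2; adjusted p = 0.0669). Exons of 18 of the 39 genes overlap another gene model, so reads of such pairs may be shared.

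Per2, a core clock gene (ENSMUSG00000055866, chr1:91415982-91459324, minus strand), was among the calls and encodes a repressor of the CLOCK and ARNTL pair. Per2 had 41.8, 105 and 134 CPM in diabetic LXA4 libraries against 23.8, 39.5 and 73.8 CPM in diabetic vehicle libraries. In nondiabetic mice Per2 had 30.7, 51.2 and 56.4 CPM with LXA4 against 51.7, 62.2 and 75.6 CPM with vehicle. Diabetic LXA4 replicates 5 and 6 were low in Per2 and the other 4 were above every diabetic vehicle library. The interaction of Per2 was 1.54 ± 0.35 (log2, SE; adjusted p = 0.0485).

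The 10 clock genes measured that peak together with Per and Dbp had a median interaction of 0.79 (log2), against 0.03 (log2) over all genes. In edgeR 1 of them passed, Per2, beside 0.248% of all genes, and 7 had an unadjusted p under 0.05 with a positive interaction, beside 10.9% of all genes. DESeq2 called Per2, Tef and Cry2, beside 1.65% of all genes, and voom called these and Hlf and Nr1d2, beside 1.34%. Tef, a PAR-domain factor, had 210, 394 and 404 CPM in diabetic LXA4 libraries against 187, 264 and 326 CPM in diabetic vehicle libraries, and 209, 243 and 335 CPM with LXA4 against 293, 318 and 383 CPM with vehicle in nondiabetic mice. Its interaction was 0.78 (log2; edgeR adjusted p = 0.0653), with overlap in both states. The adjusted p of Tef was 0.0146 with DESeq2 and 0.0113 with voom. Cry2, a repressor of the clock, had an interaction of 0.84 (log2; adjusted p = 0.0669) and 18.5, 20.2 and 23.7 CPM in nondiabetic LXA4 against 25.8, 30.7 and 34.5 CPM in nondiabetic vehicle libraries, which did not overlap. Dbp had 1.69 (log2; adjusted p = 0.156), Ciart 1.56 (log2; adjusted p = 0.253), Per1 0.80 (log2; adjusted p = 0.242) and Nr1d2 0.52 (log2; adjusted p = 0.169). Hlf and Bhlhe41 had 0.38 and 0.39 (log2), and Nr1d1 alone in this list was negative, at -0.23 (log2).

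The 6 clock genes grouped with Arntl had a median interaction of -0.52 (log2). Arntl had -0.84 (log2; edgeR adjusted p = 0.502), Npas2 -1.56 (log2; adjusted p = 0.268), Clock -0.53 (log2; adjusted p = 0.208) and Nfil3 -0.50 (log2; adjusted p = 0.598). The values of Arntl and Npas2 depended on diabetic LXA4 replicate 5, without which they were -1.87 (log2; adjusted p = 0.0787) and -2.79 (log2; adjusted p = 0.0236). That library had the highest level of both genes in its group, so nothing is read from these p-values. Arntl, Clock, Cry1 and Npas2 passed with voom, beside 1.34% of all genes. Cry1 went the other way within this list, with an interaction of 1.33 (log2; adjusted p = 0.128). Npas2, a partner of ARNTL, had 5.58, 10.1 and 75.8 CPM in diabetic LXA4 libraries against 8.16, 16.1 and 32.7 CPM in diabetic vehicle libraries, and 14.3, 43.9 and 68.4 CPM with LXA4 against 3.78, 11.6 and 20.2 CPM with vehicle in nondiabetic mice. Its level was high in most nondiabetic LXA4 libraries and in 1 diabetic LXA4 library.

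A clock score was formed for each library as the mean log2 level of the Per and Dbp genes minus that of the Arntl genes, each relative to its mean over libraries. It had lowest, median and highest values of -1.90, 0.41 and 1.29 in diabetic LXA4, -0.56, 0.23 and 0.48 in diabetic vehicle, -1.57, -1.15 and 0.25 in nondiabetic LXA4 and -0.35, 0.32 and 1.02 in nondiabetic vehicle libraries. In nondiabetic mice 4 LXA4 libraries were below every vehicle library, and diabetic LXA4 replicate 5 had the lowest score of all 24. The LXA4 minus vehicle difference of the score was 0.10 in diabetic mice (exact permutation p = 0.866, 2-sided) and -1.11 in nondiabetic mice (exact permutation p = 0.0216, 2-sided). The interaction of the score was 1.21 (exact permutation p = 0.0728, 2-sided, over 853776 assignments of the treatment labels within each state), or 0.182 adjusted over the 5 library measures tested. Without diabetic LXA4 replicate 5 it was 1.63 (exact permutation p = 0.00334, not adjusted). That library stands out by the tested score itself, so nothing is read from this p. Without the 2 libraries rich in structural RNA the interaction of the score was 1.08 (exact permutation p = 0.127).

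**Figure D2:**
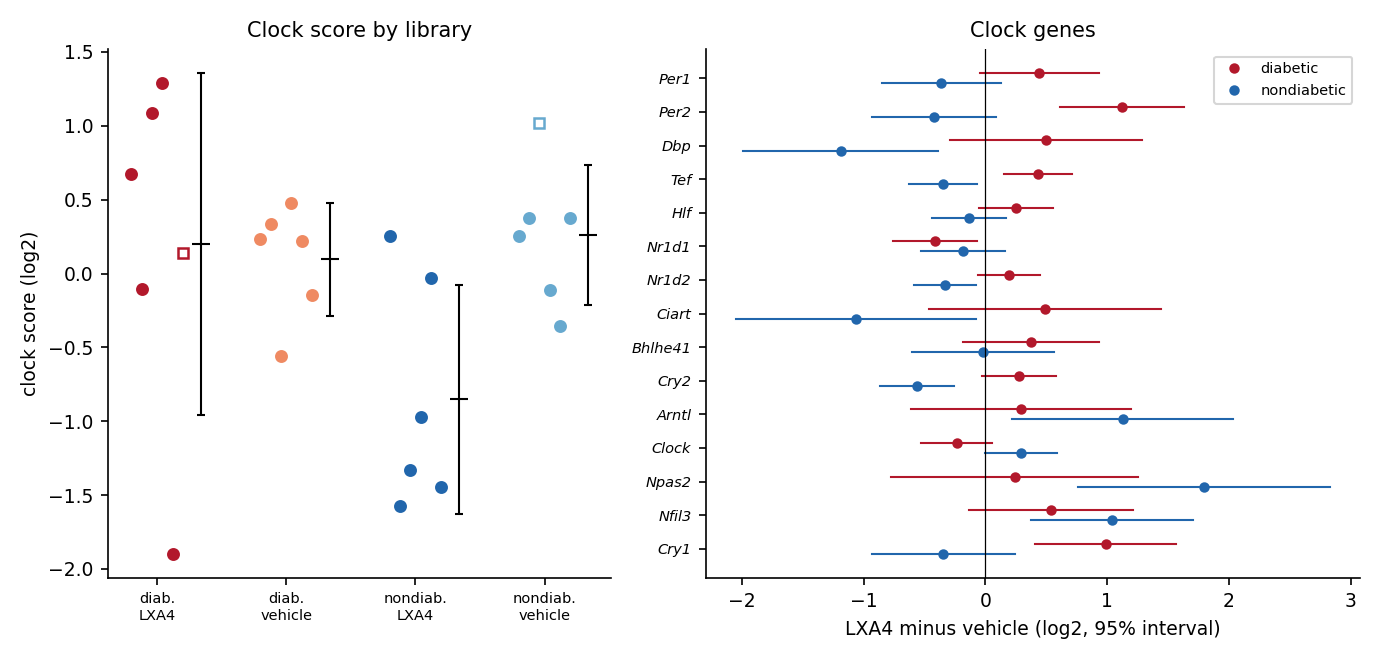
Left, the clock score (log2) of each library with mean and SD per group, open squares marking the libraries rich in structural RNA. Right, the LXA4 minus vehicle effect with its 95% interval for 15 clock genes in diabetic mice (red) and in nondiabetic mice (blue). Scores of nondiabetic LXA4 libraries reach down to -1.57, and diabetic LXA4 replicate 5 lies at -1.90.

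Fewer genes passed with clock levels in the fit. With the clock score as a covariate 1 gene passed (0.00636% of genes) instead of 39, and with the first 2 principal components of the clock genes 3 passed (0.0191%), of which 1 was among the 39. A score built without the clock genes that passed also left 1 gene, Lamb3. All 39 interactions kept their sign under the score covariate, in a fit of the same libraries that chose them. Kdm4b was at 0.50 (log2; edgeR adjusted p = 0.0780), Ddc at -0.96 (log2; adjusted p = 0.0780) and Per2, itself part of the score, at 1.11 (log2; adjusted p = 0.160). Without the 2 libraries rich in structural RNA, the same covariate left 58 genes (0.369%), of which 18 were among the 39. With the 2 components, to which Per2 itself contributes, Per2 was at 0.11 (log2; adjusted p = 0.777), 1600010M07Rik at 0.67 (log2; adjusted p = 0.195) and Stra6l at -0.66 (log2; adjusted p = 0.199). The labels give no hour of collection, so it and the treatment cannot be told apart, and the part of the clock in the 39 calls was not tested beyond these fits.

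E-boxes (CACGTG, bound by CLOCK and ARNTL) and the letters AGGTCA, bound by NR1D1 and NR1D2, were searched on both strands in RefSeq promoter windows of GRCm38.p6, 250 bases before to 50 after each start. Windows were at hand for 28 of the 39 called genes (43 windows) and for 14 of 16 clock genes measured (19 windows). An E-box was present in 3 of the 43 windows of called genes (6.98%), in 6 of the 19 windows of clock genes (31.6%) and in 7.15% of all 32851 windows. An AGGTCA match was present in 16.3% of the windows of called genes, in 26.3% of those of clock genes and in 16.3% of all windows. Neighbouring matches of different motifs may share bases at their ends. The windows below are examples from clock genes and called genes, with the match in capitals, either as spelled or as its reverse complement. An E-box was also held by windows of Bhlhe41, Ciart and the called gene Mad1l1. An AGGTCA match was also held by windows of Arntl, Clock, Nfil3, Nr1d2 and the called genes Hdac7, Ngef, Ppcdc and Sumo3.
Per1: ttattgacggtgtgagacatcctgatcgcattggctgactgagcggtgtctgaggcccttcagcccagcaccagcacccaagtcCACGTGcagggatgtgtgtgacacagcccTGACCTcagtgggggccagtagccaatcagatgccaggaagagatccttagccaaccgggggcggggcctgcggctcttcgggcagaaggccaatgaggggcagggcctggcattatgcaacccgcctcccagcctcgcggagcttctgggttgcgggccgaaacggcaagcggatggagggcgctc
Tef: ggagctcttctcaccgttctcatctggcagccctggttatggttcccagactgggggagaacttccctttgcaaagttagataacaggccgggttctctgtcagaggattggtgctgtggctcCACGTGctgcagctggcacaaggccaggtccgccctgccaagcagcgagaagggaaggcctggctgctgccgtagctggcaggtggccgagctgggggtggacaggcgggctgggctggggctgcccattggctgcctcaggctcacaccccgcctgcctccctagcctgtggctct
Cry1: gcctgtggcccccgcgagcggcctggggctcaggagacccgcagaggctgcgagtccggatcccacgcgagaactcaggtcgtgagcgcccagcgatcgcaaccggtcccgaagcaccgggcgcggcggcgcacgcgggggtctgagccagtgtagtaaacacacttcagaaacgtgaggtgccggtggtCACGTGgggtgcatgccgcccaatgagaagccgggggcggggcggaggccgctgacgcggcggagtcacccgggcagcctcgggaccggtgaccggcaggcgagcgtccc
Epb41l1: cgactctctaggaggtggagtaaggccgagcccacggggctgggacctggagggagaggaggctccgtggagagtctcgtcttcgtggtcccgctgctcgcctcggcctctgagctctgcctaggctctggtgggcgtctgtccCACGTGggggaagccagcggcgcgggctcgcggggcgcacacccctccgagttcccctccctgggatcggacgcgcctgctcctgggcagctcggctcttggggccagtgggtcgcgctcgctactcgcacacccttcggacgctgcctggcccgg
Med28: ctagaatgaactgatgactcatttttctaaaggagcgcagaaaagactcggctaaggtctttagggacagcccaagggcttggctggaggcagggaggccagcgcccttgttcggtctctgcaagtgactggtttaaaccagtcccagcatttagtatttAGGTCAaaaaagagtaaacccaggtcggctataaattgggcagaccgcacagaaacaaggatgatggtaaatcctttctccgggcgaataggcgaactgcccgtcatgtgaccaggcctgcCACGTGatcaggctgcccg
Ddc: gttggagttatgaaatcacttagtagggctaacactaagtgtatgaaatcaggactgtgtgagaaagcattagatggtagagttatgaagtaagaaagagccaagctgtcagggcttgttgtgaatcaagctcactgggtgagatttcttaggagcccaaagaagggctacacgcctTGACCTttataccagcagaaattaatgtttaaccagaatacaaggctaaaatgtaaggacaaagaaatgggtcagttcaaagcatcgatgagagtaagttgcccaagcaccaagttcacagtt
The Per1 window is chr11:69098699-69098998, plus strand, that of Tef chr15:81802423-81802722, plus strand and that of Cry1 chr10:85185005-85185304, minus strand. The Epb41l1 window is chr2:156420659-156420958, plus strand, that of Med28 chr5:45519979-45520278, plus strand and that of Ddc chr11:11898095-11898394, minus strand. Per1 and Med28 hold both an E-box and an AGGTCA match, Tef, Cry1 and Epb41l1 an E-box, and Ddc an AGGTCA match read as TGACCT. Epb41l1 was positive in the interaction and Med28 negative, so the 2 called genes printed with an E-box had interactions of opposite sign. Mad1l1, whose E-box window is not printed, was positive at 0.47 (log2). The EGR core letters GCGTGGG were in 9.30% of the windows of called genes and 5.04% of all windows, GCGGGGG in 14% and 10.8%, and the D-box TTATGTAA in 0% and 0.938%. A match describes letters in a window and is not a binding site.

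Leaving out the 2 libraries rich in structural RNA gave 129 calls (0.82% of 15728 genes), 82 positive (0.521%) and 47 negative (0.299%). Of the 39 genes 38 were among them, and Ppcdc was the exception, with an edgeR adjusted p of 0.053. The other 91 were 50 positive and 41 negative genes, and 87 of them had the same sign with all libraries, in a fit that reuses these libraries. Those with the smallest p were Il15ra, a receptor chain for interleukin-15, at 0.49 (log2; adjusted p = 0.0211), and Srrm2, a splicing factor, at 0.28 (log2; adjusted p = 0.0211), both picked after their values were seen. Further members were the clock gene Cry2 at 0.86 (log2; adjusted p = 0.0421), Ctnnb1, which encodes beta-catenin, at -0.27 (log2; adjusted p = 0.031), Cfl1, the actin-severing cofilin, at -0.54 (log2; adjusted p = 0.0276) and Tfeb, a regulator of lysosome genes, at 0.51 (log2; adjusted p = 0.0495). Of the 129 calls 42 also passed with the clock score as a covariate in the same libraries.

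The 2 libraries also carried a dependence on base composition. The GC index, the level of GC-rich genes minus that of GC-poor genes, was 1.44 in diabetic LXA4 replicate 6 and 0.72 in nondiabetic vehicle replicate 3, and between -0.18 and 0.05 in the other 22 libraries. Over 5 equal groups of genes, from the lowest to the highest transcript GC content, the median interaction was -0.12, -0.04, 0.02, 0.11 and 0.26 (log2) with all libraries, and -0.03, -0.00271, -0.00666, 0.00293 and 0.02 (log2) without the 2. The 33 positive genes had a median GC content of 55.6%, the 6 negative genes 47.7% and all genes 49.4%. With offsets for GC content in each library 10 genes passed (0.0637%), 9 of them among the 39, and without the 2 libraries the same offsets gave 120 calls (0.765%) with 30 among the 39. Transcript length showed the reverse dependence on the libraries used. From the shortest to the longest of 5 equal groups the median interaction was 0.02, 0.03, 0.04, 0.03 and 0.03 (log2) with all libraries, and -0.10, -0.05, -0.00611, 0.02 and 0.06 (log2) without the 2. A length index fitted as a covariate gave 273 calls (1.74%) with all libraries and 0 without the 2, where 1491 genes had an unadjusted p under 0.05. The part of GC content and length in the calls was not tested beyond these fits.

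**Figure D3:**
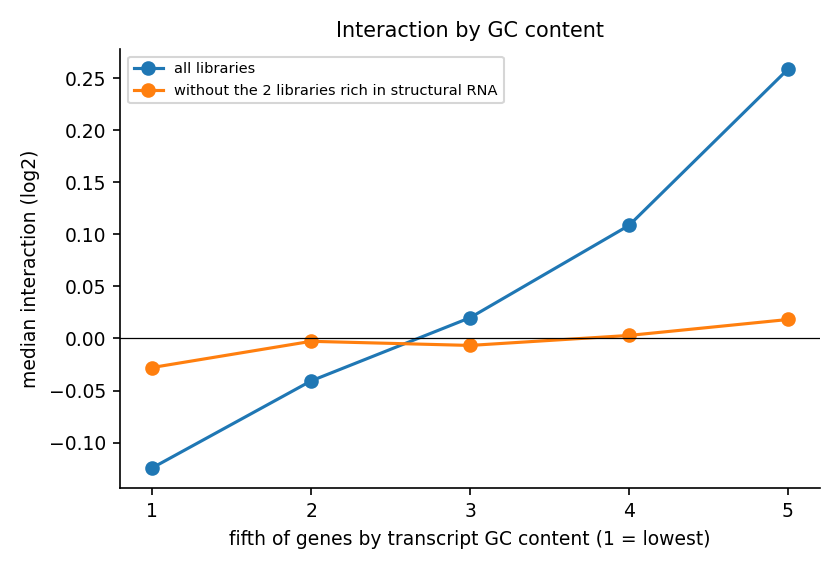
Median interaction (log2) in each of 5 equal groups of genes by transcript GC content, with all libraries and without the 2 libraries rich in structural RNA. With all libraries the medians run from -0.12 to 0.26, and without the 2 they stay between -0.03 and 0.02.

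Single libraries decided how many genes passed. Without diabetic vehicle replicate 3 no gene passed in edgeR and 2235 had an unadjusted p under 0.05, although Kdm4b, Lamb3, Ddc and 1600010M07Rik each had an adjusted p of 0.0512. The count fell to 5 without nondiabetic vehicle replicate 4, 6 without nondiabetic LXA4 replicate 4, 7 without nondiabetic LXA4 replicate 2, 7 without diabetic vehicle replicate 2, 8 without diabetic LXA4 replicate 4 and 9 without nondiabetic vehicle replicate 2. It was 10, 13 and 13 without nondiabetic LXA4 replicates 3, 1 and 6, 21 without diabetic vehicle replicate 6 and 24 without nondiabetic vehicle replicate 3. Higher counts came without nondiabetic vehicle replicates 5 (106) and 6 (79), diabetic vehicle replicate 4 (71) and diabetic LXA4 replicates 1 (67), 2 (63), 3 (69), 5 (76) and 6 (59). All 39 genes kept the sign of their interaction in all 24 of these fits, each of which reused all but 1 of the libraries that chose them. In 20 or more of the 24 fits 8 kept their call, among them Kdm4b, Lamb3, Ddc and 1600010M07Rik in 23, and Dlg5 and Map3k9 in 20. With GC offsets and all libraries, Ddc and 1600010M07Rik kept their call and Kdm4b, Lamb3, Dlg5 and Map3k9 did not. In a fit of the 24 libraries alone 0 genes passed and 1836 had an unadjusted p under 0.05, while DESeq2 gave 257 calls (1.65%), voom with quality weights 211 (1.34%) and a filter at a mean of 5 CPM 81 (0.73%). Adding the GC index as a covariate gave 89 (0.566%) with all libraries and 238 (1.51%) without the 2, and a replicate block gave 9 (0.0572%). The 56 calls of LXA4 against vehicle in diabetic mice became 0, 1, 19 and 36 without diabetic vehicle replicates 2, 3, 5 and 6, and 16, 30 and 88 without diabetic LXA4 replicates 2, 4 and 5. They became 29 without nondiabetic LXA4 replicate 3 and 33 without nondiabetic vehicle replicate 2.

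**Figure D4:**
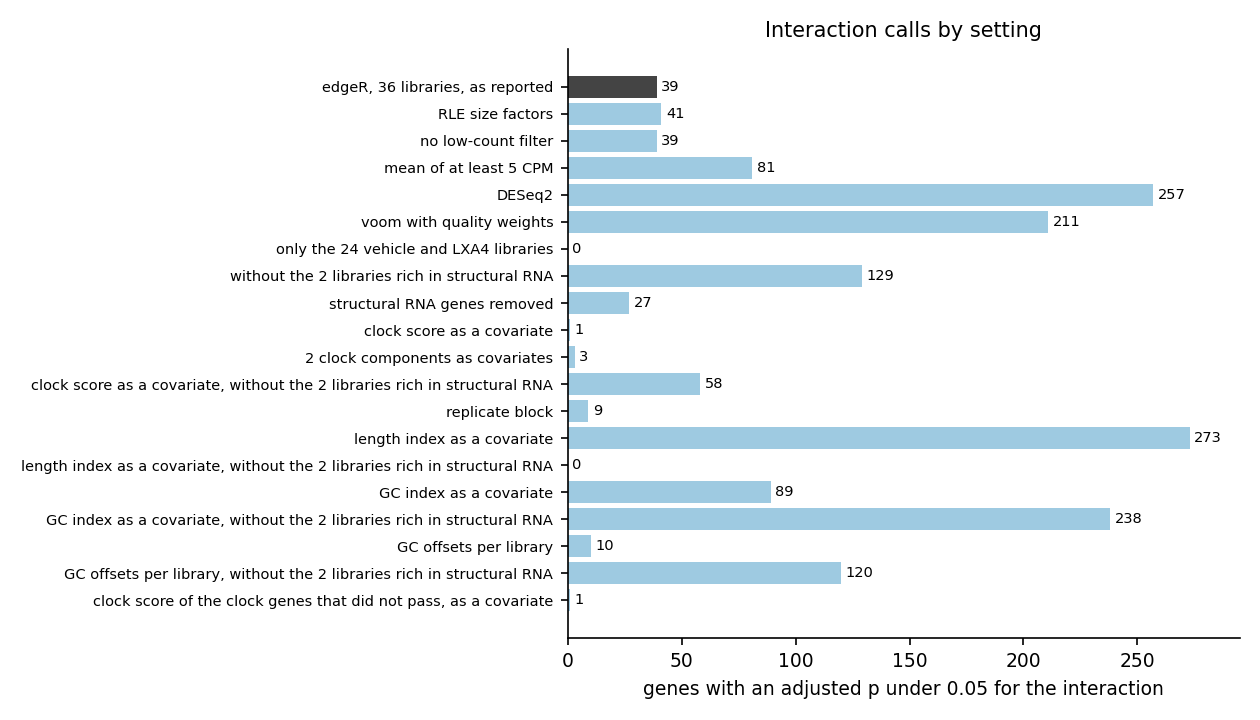
Number of genes with an adjusted p under 0.05 for the interaction, as reported (39, dark bar) and under each other setting (light bars). The counts run from 0, in the fit of 24 libraries and in the length index fit without the 2 libraries, to 273 with the length index.

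Egr1, an immediate early transcription factor named in the title of the study, did not pass the interaction test in edgeR and passed with DESeq2. Egr1 had lowest, median and highest levels of 1.65, 2.57 and 3.71 CPM in diabetic LXA4 libraries against 6.71, 7.32 and 9.06 CPM in diabetic vehicle libraries. In nondiabetic mice Egr1 had 1.38, 3.16 and 6.47 CPM with LXA4 against 1.14, 3.82 and 6.76 CPM with vehicle. The diabetic groups did not overlap and the nondiabetic groups covered the same range. The interaction was -1.39 ± 0.41 (log2, SE; unadjusted p = 0.00187, edgeR adjusted p = 0.121). It was -1.41 (log2; adjusted p = 0.0444) with DESeq2 and -1.05 (log2; adjusted p = 0.154) with voom, and it passed in edgeR in 1 of the 24 fits with 1 library left out, that without nondiabetic vehicle replicate 6 (adjusted p = 0.0477). Egr1 had an LXA4 effect of -1.43 (log2; adjusted p = 0.0242) in diabetic mice and -0.04 (log2; adjusted p = 0.993) in nondiabetic mice. Its corepressors Nab1 and Nab2 had interactions of -0.21 (log2; adjusted p = 0.481) and 0.06 (log2; adjusted p = 0.921), and the sign of Nab2 depended on the settings. Of 29 immediate early genes measured 0 passed in edgeR, beside 0.248% of all genes. Egr1 passed with DESeq2, beside 1.65% of all genes, and 0 members passed with voom, beside 1.34%. At an unadjusted p under 0.05 in edgeR 1 was positive (3.45%) and 5 were negative (17.2%), beside 10.9% and 5.6% of all genes. The median interaction of the list was 0.06 (log2). Fos had -2.14 (log2; adjusted p = 0.182) and Dusp6, a phosphatase of ERK, -0.66 (log2; adjusted p = 0.211).

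Of the other pathway lists, extracellular matrix and fibrosis had 2 of 47 measured genes called in edgeR, Lamb3 and Lama5, beside 0.248% of all genes, with a median interaction of 0.09 (log2). Lamb2, another laminin chain, had 40.2, 41.5 and 246 CPM in diabetic LXA4 libraries against 33.1, 37.4 and 44.3 CPM in diabetic vehicle libraries, with an interaction of 1.24 (log2; edgeR adjusted p = 0.173) that was 0.20 (log2; adjusted p = 0.378) without the 2 libraries. The TGF-beta and BMP list had 0 of 33 called in edgeR, beside 0.248% of all genes, and a median of 0.15 (log2). At an unadjusted p under 0.05, 11 of its genes (33.3%) were positive and 0 negative, beside 10.9% and 5.6% of all genes. DESeq2 called Smad6, Smad7 and Ltbp3 (9.09%), beside 1.65% of all genes, and voom called 0, beside 1.34%. Smad6, an inhibitor of BMP signalling, had 1.08 (log2; adjusted p = 0.056), Smad7, an inhibitor of TGF-beta signalling, 1.14 (log2; adjusted p = 0.117) and Ltbp3, a binding protein of latent TGF-beta, 0.67 (log2; adjusted p = 0.104). Without the 2 libraries these were 0.79, 0.45 and 0.40 (log2). The enzymes and receptors of lipoxins and other eicosanoids had 0 of 24 called in edgeR, DESeq2 and voom, beside 0.248%, 1.65% and 1.34% of all genes. In edgeR 2 were positive (8.33%) and 1 negative (4.17%) at an unadjusted p under 0.05, beside 10.9% and 5.6% of all genes. Their median was 0.14 (log2), and Ptgs1, a cyclooxygenase, had 0.38 (log2; adjusted p = 0.222).

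The unfolded protein response list had 0 of 26 called in edgeR, beside 0.248% of all genes, and a median of -0.15 (log2). At an unadjusted p under 0.05, 6 members (23.1%) were negative and 0 positive, beside 5.6% and 10.9% of all genes. DESeq2 called Calr and Canx (7.69%), both negative, beside 1.65% of all genes, and voom called Calr (3.85%), beside 1.34%. Calr, the endoplasmic reticulum chaperone calreticulin, had 189, 225 and 302 CPM in diabetic LXA4 libraries against 227, 340 and 358 CPM in diabetic vehicle libraries, and 396, 490 and 538 CPM with LXA4 against 251, 376 and 496 CPM with vehicle in nondiabetic mice. Both pairs overlapped, and the interaction was -0.79 (log2; edgeR adjusted p = 0.0653). Canx and Hsp90b1, also chaperones of that compartment, had -0.39 (log2; adjusted p = 0.121) and -0.63 (log2; adjusted p = 0.162). Oxidative phosphorylation had 0 of 44 called in edgeR, DESeq2 and voom, beside 0.248%, 1.65% and 1.34% of all genes. Its median was -0.15 (log2). In edgeR 10 were negative (22.7%) and 3 positive (6.82%) at an unadjusted p under 0.05, beside 5.6% and 10.9% of all genes. NRF2 targets had 0 of 28 called in edgeR, DESeq2 and voom, beside the same shares of all genes. At an unadjusted p under 0.05 in edgeR, 5 were negative (17.9%) and 0 positive, beside 5.6% and 10.9% of all genes. Their median was -0.27 (log2), with Srxn1, which repairs oxidised peroxiredoxin, at -0.56 (log2; adjusted p = 0.131) and Gsr, glutathione reductase, at -0.62 (log2; adjusted p = 0.192). In edgeR no gene passed in the lists of tubular injury, cytokines, p53 targets, cell cycle, fatty acid oxidation, interferon response, mitochondrial mRNAs, glucose metabolism and glucocorticoid response, beside 0.248% of all genes. The medians of these lists lay between -0.24 and 0.16 (log2). DESeq2 called Acaa1b, beside 1.65% of all genes, and voom called Cpt1a and Slc2a9, beside 1.34%, in these lists.

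No marker gene of a kidney or blood cell type passed the interaction test in edgeR, DESeq2 or voom, beside 0.248%, 1.65% and 1.34% of all genes. Erythroid markers, with 7 of 8 measured, had a median interaction of -0.91 (log2). All 7 were negative, beside 7263 of 15726 genes tested, and 4 (57.1%) had an unadjusted p under 0.05 in edgeR, beside 5.6% of all genes. Their summed level had lowest, median and highest values of 129, 207 and 377 CPM in diabetic LXA4, 280, 332 and 464 CPM in diabetic vehicle, 315, 337 and 426 CPM in nondiabetic LXA4 and 190, 270 and 397 CPM in nondiabetic vehicle libraries. Hbb-bs, a beta-globin, had an interaction of -1.22 (log2; edgeR adjusted p = 0.145). Liver markers, with 8 of 10 measured, had a median of -0.78 (log2) at sums of 37.3 to 82.4, 49.7 to 84.0, 78.3 to 110 and 48.4 to 112 CPM in the same order of groups. The medians of the proximal tubule, podocyte, endothelial and myeloid lists were -0.15, 0.02, 0.05 and -0.10 (log2), against 0.03 (log2) over all genes. Those of the collecting duct and of the loop of Henle and distal tubule were 0.26 and 0.18 (log2). Those of the adipose, the T, NK and B cell and the smooth muscle, pericyte and juxtaglomerular lists were -0.23, -0.20 and -0.08 (log2). The part of blood or other tissue in the interaction was not tested.

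For benzo-LXA4, given at 1.7 ug/kg and so at another dose than LXA4, the same interaction had 0 calls in edgeR and 673 genes with an unadjusted p under 0.05. Its values use the same vehicle libraries as those of LXA4, and since the doses differ the values of each are given side by side. For LXA4 and benzo-LXA4 in that order, Lamb3 had interactions of 1.44 and 0.58 (log2), Per2 1.54 and 0.44 (log2), Kdm4b 0.56 and 0.35 (log2), Ddc -1.05 and -0.44 (log2) and Cldn1 -1.07 and -0.35 (log2). Aldh1a3 had 8.17 and 0.64 (log2), and both values rest on few libraries. Its levels were 18.95 and 11.37 CPM in nondiabetic benzo-LXA4 replicates 2 and 6, so nothing is read from its 2 values. The difference between the 2 interactions, in which the vehicle libraries cancel and dose and compound cannot be told apart, had 0 calls in edgeR, 3 in DESeq2 and 1 in voom, and 1463 genes had an unadjusted p under 0.05 in edgeR.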

How the data were processed

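The authors deposited 1 table of raw counts per gene, with genes as rows and 36 libraries as columns. Per the labels' protocols, ribosomal RNA was depleted from total RNA of kidney cortex and directional libraries were made. Per the submitters' processing notes, bcl2fastq 2.17.1.14, STAR, featureCounts and the build GRCm38 were used. No source used here gives the other versions, the annotation release or the strand setting. The lowest total count of a gene was 370, so rarer genes are not in the table. No 2 libraries held identical counts.

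Counts were tested in R 4.3.3 with the quasi-likelihood test of edgeR 4.0.16 (TMM factors, edgeR's low-count filter) in a fit of 36 libraries in 6 groups, with p-values adjusted by Benjamini-Hochberg across the genes tested. CPM are relative to TMM-scaled totals, and clock scores use log2 CPM with a prior count of 1. DESeq2 1.42.0 and limma 3.58.1 (voom) gave alternatives, which also covered size factors, filters, libraries left out and covariates. The test was checked on simulated data. Annotation is GENCODE M21, which held 15692 of 15730 gene IDs, and coordinates are counted from 1. Single values per library were tested by exact permutation.

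The groups, genes and lists were chosen with earlier results of these data known. Named genes came from Apoe, the Egr and Nab genes and the clock lists, the 15 largest called interactions of each sign (filled to 10 by p), up to 3 genes of smallest p in each list, and up to 20 genes called for LXA4 in each state. The other called genes are named in addition, except for 2 that are not reported here.

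Replicate numbers did not pair the libraries. Over 36 pairs of the same number the correlation of deviations from group means ran from -0.38 to 0.48 with a median of -0.00749.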

Additional observations from a re-analysis of the deposited data

Results flagged for a closer look

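The LXA4 response differed between diabetic and nondiabetic mice in 39 genes by the interaction test of edgeR (adjusted p under 0.05). Of these, 37 are given here. The positive interactions, in log2, were 8.17 for Aldh1a3, 1.82 for 1600010M07Rik, 1.56 for Gm9754, 1.54 for Per2, 1.5 for A930033H14Rik, 1.44 for Lamb3, 0.91 for Syne3, 0.78 for Hdac7, 0.77 for Cbfa2t3, 0.74 for Ngef and 0.72 for D930015E06Rik. Further positive values were 0.69 for Fam102a, 0.66 for Eya2, 0.64 for Fam169b, 0.61 for Map3k9, 0.59 for Cables1, 0.58 for Epb41l1, 0.56 for Kdm4b, 0.55 for Arhgef10 and Pitpnm2, 0.53 for Dlg5 and Ptpn1, and 0.52 for Pkd1 and Ctif. The smallest were 0.48 for Ppcdc, 0.47 for Zdhhc1 and Mad1l1, 0.46 for Lama5, 0.45 for Myo10, 0.40 for Anxa11 and 0.33 for Trappc12. The negative values were -1.22 for Stra6l, -1.07 for Cldn1, -1.05 for Ddc, -0.72 for Tuba4a, -0.62 for Med28 and -0.58 for Sumo3.

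Single libraries stood far from the other 5 of their group in 23 of 168 groups of values examined. These groups repeat the same 24 libraries over called genes and library measures, so they are not independent and no chance rate is given. Diabetic LXA4 replicate 6 did so for Fam102a (148 CPM), Ptpn1 (83.4 CPM), Med28 (22.7 CPM), Zdhhc1 (43.9 CPM), Dlg5 (158 CPM), Syne3 (60.2 CPM), Hdac7 (76.3 CPM) and Pkd1 (160 CPM), and for its GC index of 1.44, its structural RNA share of 56.9% and its mitochondrial ribosomal RNA share of 0.394%. Nondiabetic vehicle replicate 3 did so for Fam102a (132 CPM), 1600010M07Rik (14 CPM) and Syne3 (42.0 CPM), and for its GC index of 0.72 and its structural RNA share of 17.7%. Nondiabetic LXA4 replicate 5 stood apart for Ngef (120 CPM), Lama5 (115 CPM) and Fam169b (42.5 CPM), nondiabetic LXA4 replicate 4 for Cldn1 (14.9 CPM) and nondiabetic LXA4 replicate 3 for a structural RNA share of 6.81%. Aldh1a3 was at 89.0 CPM in diabetic LXA4 replicate 5 and at 46.3 CPM in nondiabetic vehicle replicate 2.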

How the results depend on the processing

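The direction of each of the 39 interactions was kept in every fit run in which the gene was tested. Each fit reused most of the libraries that chose the genes, so nothing is read from the kept direction. The 39 calls were sensitive to the settings. The count was 81 with a mean of at least 5 CPM, 257 with DESeq2, 211 with voom and quality weights, 0 with the 24 libraries alone and 129 when the 2 libraries with much structural RNA were left out. Calls numbered 1 with the clock score, 3 with 2 clock components and 1 with a score of the clock genes that did not pass. It was 273 with the length index and 0 with that index without the 2 libraries, 89 with the GC index and 238 with that index without the 2 libraries, and 10 and 120 with GC offsets, with and without them. Leaving out 1 library at a time gave 0 to 106 calls. The length, GC and uncalled clock score settings were chosen after seeing the data. The positive share of the calls was 84.6% as reported, 63.6% without the 2 libraries and 50.0% with GC offsets. A replicate block left 9 calls, and 4 of the 24 libraries correlated best with their own number, so the numbers do not pair the libraries.

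For LXA4 against vehicle in diabetic mice, 56 calls became 221 with DESeq2, 172 with voom, 6 with the 24 libraries alone, 93 without the 2 libraries, 96 with the clock score in addition, 704 with 2 clock components and 28 with the replicate block, and 0 to 88 with 1 library left out. In nondiabetic mice 0 calls became 3 with DESeq2 and 3 with voom, and stayed 0 with 1 library left out. The difference between the compounds gave 3, 1 and 0 to 1 calls in the same order. The clock score interaction was 1.00 to 1.63 with 1 library left out. The length index interaction of 0.08 (exact permutation p = 0.465) became 0.19 (exact permutation p = 0.0128) without the 2 libraries, and that of the structural RNA share, 11.3 percentage points, became -0.125.

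Values of genes that did not pass reversed under some settings. Nab2 was -0.14 with voom, -0.25 without the 2 libraries, -0.20 with the clock score in addition and -0.0166 with the length index in addition. Nab2 was -0.26 and -0.28 with the GC index and -0.24 and -0.26 with GC offsets, with and without the 2 libraries, and between -0.10 and 0.147 with 1 library left out. With 2 clock components Apoe was -0.0591, Per1 -0.10, Ciart -0.52, Bhlhe41 -0.57, Cry1 -0.0143 and Arntl 0.20. With GC offsets Apoe was -0.0442, and with the GC index Nab1 was 3e-04. Bhlhe41 was -0.37 with the clock score, -0.28 with it without the 2 libraries and -0.41 with the score of uncalled genes, where Ciart was -0.0446 and Nfil3 0.0765. Nfil3 was 0.0237 with the clock score, Dbp -0.0025 with it without the 2 libraries, and Ptger1 -0.33 with the length index without them. The clock genes named here are part of the score or components that were fitted. Their own change under these settings is thus in part built in, and nothing is read from it. The cause of the other changes was not tested. Depth limits the 2 libraries rich in structural RNA most, with 8896193 and 10086698 counts.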
